A study of Mus musculus with 2 samples.

Results

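The Dlk1 and Myoc fibroblasts of the celiac and superior mesenteric ganglia of mice were taken as 274 of the 24873 cell barcodes in the deposited counts, 125 in library 1 and 149 in library 2. They were picked barcode by barcode from UMI counts (unique molecular identifiers, 1 per captured RNA molecule), each scaled to 10000 UMIs of its barcode, a unit written p10k below. A member had at least 20 p10k of Dcn, Lum, Col1a1 and Pdgfra together. It had under 3 UMIs of the perineurial genes Cldn1, Lypd2 and Slc6a13, under 5 p10k of Clec3b, Inmt and Pcolce2, under 10 p10k of 3 interferon-induced genes and under 20 p10k of the 3 macrophage C1q genes. Its summed level of Dlk1, Myoc, Kcnk2 and Bmp5 reached 5 p10k and exceeded the sum of Spp1, Ccl11, Crispld2 and Cxcl1. These 24 genes chose the members, so their levels are given as a description only and were not tested.

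These ganglia were digested with enzymes, triturated and loaded on 10x Genomics chips (3' v3.1 chemistry), which gave 2 libraries that form 1 group. The study used 20 mice aged 7 to 8 weeks, males and females in equal number; the sources used here name no strain, no genotype and no animals behind each library. No treatment is named, so every comparison is between cell populations inside the same 2 suspensions. Because nothing says that the libraries came from separate animals, p-values measure the spread between 2 libraries, which may be technical.

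Fibroblasts of a ganglion lie in the connective tissue around neurons, satellite glia and nerve fibres, and they build its collagen matrix. Dlk1 encodes a transmembrane and secreted protein of the Notch ligand family and is imprinted, being expressed from the paternal allele. Myoc encodes myocilin, a secreted olfactomedin-domain protein best known from the eye's outflow tissue, Kcnk2 encodes the mechanosensitive potassium channel TREK-1, Bmp5 is a BMP ligand, and Gpc3 is a cell-surface heparan sulfate proteoglycan.

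The rule left few barcodes at its last step. In library 1, 3540 barcodes passed the general fibroblast threshold, 1373 remained after the perineurial, Clec3b, interferon and C1q steps, 876 of those reached 5 p10k of the 4 genes, and 125 also had more of these than of the opposing 4 genes. In library 2 the same steps left 3450, 1369, 918 and 149 barcodes. Thus most fibroblasts with a clear signal of Dlk1, Myoc, Kcnk2 and Bmp5, 751 in library 1 and 769 in library 2, were not members because Spp1, Ccl11, Crispld2 and Cxcl1 were as high or higher. Members made up 0.993% of library 1 (exact 95% binomial interval 0.827 to 1.18%) and 1.21% of library 2 (1.03 to 1.42%); the intervals cover counting error only. At the threshold of 5 p10k, 8 and 4 members lay just inside, at 5 to under 6 p10k, and 5 barcodes of each library lay just outside, at 4 to under 5 p10k. At the last step, the excess over the opposing 4 genes had a median of 7.69 p10k in members of library 1 and 5.85 in library 2. Its lowest values were 1.045 and 0.464 p10k.

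Inside the population the 4 genes ran from 5.04 to 57.8 p10k with a median of 18.9 in library 1, and from 5.12 to 65.8 with a median of 20.7 in library 2. The opposing genes were seldom absent from the same barcodes. Their median in members was 10.9 p10k in library 1 and 14.4 in library 2, they reached 5 p10k in 70.4% and 81.2% of members, and they were at 0 in 18 and 14 members. The call of membership rested on 1 or 2 UMIs of the 4 genes in 18 members of library 1 and 12 of library 2.

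The 4 genes did not occur as a fixed set. Dlk1 and Myoc were detected together in 44% of members of library 1 and 49.7% of library 2, and neither was detected in 16% and 13.4%. All 4 genes had a UMI in 18.4% and 20.8%. In library 1 Dlk1 had the most UMIs in 43 members, Myoc in 43, Kcnk2 in 17 and Bmp5 in 12; in library 2 the counts were 37, 47, 34 and 18. The remaining members were tied. Gpc3, which the rule did not use, had a UMI in 90.4% and 89.9% of members.

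Over the core fibroblasts (those that passed every step before the Dlk1, Myoc, Kcnk2 and Bmp5 threshold) with at least 10 UMIs of the 8 genes, the share of the 4 genes formed 1 peak and not separate groups. Its median was 0.253 over 900 barcodes in library 1 and 0.266 over 949 in library 2. The share exceeded 0.5 in 8.56% and 11.1% of them, and these sat in the falling upper tail of the distribution.

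**Figure D1:**
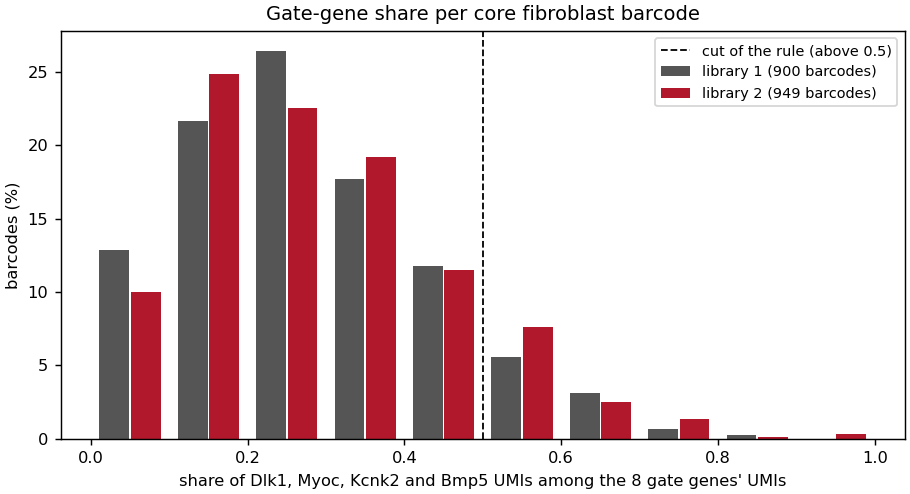
Bars show, for each library, the percent of core fibroblast barcodes (y axis) in bins of 0.1 of the share of Dlk1, Myoc, Kcnk2 and Bmp5 among the UMIs of the 8 gate genes (x axis); the dashed line marks 0.5, above which barcodes were members. Both libraries peak below 0.3 and decline without another peak past the line.

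Whole profiles were compared as well. Each barcode was thinned to 3000 UMIs, the 24 genes of the rule were left out, and the 15 nearest fibroblast barcodes were found in each library. Members made up 4.2% of the neighbours of members in library 1, where they were 3.49% of all barcodes compared, and 6.61% against 4.33% in library 2. Among the neighbours of Spp1 and Ccl11 fibroblasts (core fibroblasts at 5 p10k or more of the opposing genes, which also exceeded the 4 genes; 1961 barcodes) members made up 4.78% and 5.82%. Spp1 and Ccl11 fibroblasts were the commonest neighbours of members, at 42.3% and 43.6%, against 30% and 30.9% of all barcodes compared. Clec3b and Inmt fibroblasts followed at 36.7% and 39.3%, below their 40.2% and 39.9% of all. Perineurial or epineurial cells, 22.2% and 20.9% of all, made up 12.3% and 7.28% of the neighbours of members. Around Spp1 and Ccl11 fibroblasts they made up 4.61% and 5.27%. In library 1 members were thus rarer around one another than around the Spp1 and Ccl11 fibroblasts, and in library 2 they were slightly more frequent.

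Levels below are CPM, UMIs per 1000000 UMIs of a population summed per library. Dlk1 stood at 778 and 646 CPM in members of libraries 1 and 2. It was 298 and 267 in Spp1 and Ccl11 fibroblasts, 238 and 217 in Clec3b and Inmt fibroblasts, and 46.4 and 77.0 in perineurial or epineurial cells, while barcodes below the fibroblast threshold gave 3.90 and 3.64. Both libraries put the populations in this order, and the value of members did not overlap any other. Dlk1 had a UMI in 60.8% and 64.4% of members, 52.3% and 54.0% of Spp1 and Ccl11 fibroblasts and 43.8% and 42.1% of Clec3b and Inmt fibroblasts. It had one in 1.57% and 0.974% of barcodes below the threshold, whose median depth was 5934 and 5961 UMIs against 6040 and 5871 in members.

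Myoc stood at 898 and 934 CPM in members, 343 and 319 in Spp1 and Ccl11 fibroblasts and 342 and 302 in Clec3b and Inmt fibroblasts. It was 114 and 163 CPM in perineurial or epineurial cells, well above the 2.72 and 2.74 CPM of barcodes below the threshold. The levels of Myoc in the Spp1 and Ccl11 and the Clec3b and Inmt populations overlapped between libraries, so their order was not settled. Bmp5 was 244 and 353 CPM in members against 134 and 133 in Spp1 and Ccl11 fibroblasts. Kcnk2 added the least: 437 and 462 CPM in members against 396 and 417 in Spp1 and Ccl11 fibroblasts.

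Gpc3 tested the label with a gene outside the rule. Its level was 1422 and 1597 CPM in members, 1685 and 1709 in Spp1 and Ccl11 fibroblasts, 1605 and 1585 in Clec3b and Inmt fibroblasts and 537 and 619 in perineurial or epineurial cells. Members were the lowest of the 3 fibroblast populations in library 1 and lay just above the Clec3b and Inmt fibroblasts in library 2. Against Spp1 and Ccl11 fibroblasts the log2 difference was -0.24 ± 0.062 (SE), with an edgeR adjusted p of 0.0667. Against Clec3b and Inmt fibroblasts the same size of difference passed the test (edgeR adjusted p = 0.0251). The log2 ratio of the CPM was -0.17 in library 1 and 0.011 in library 2. These ratios lack the scaling of the fit, so their signs cannot be set against its difference. Only against perineurial or epineurial cells was Gpc3 clearly higher in members, by 1.36 ± 0.064 (edgeR adjusted p = 2.90e-09). Of the 5 markers given for these cells, the 4 that chose them were high in sum by construction. The other one did not set them apart from other fibroblasts. The name Dlk1 and Myoc fibroblasts is therefore used here for the rule and not for a separate cell type.

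**Figure D2:**
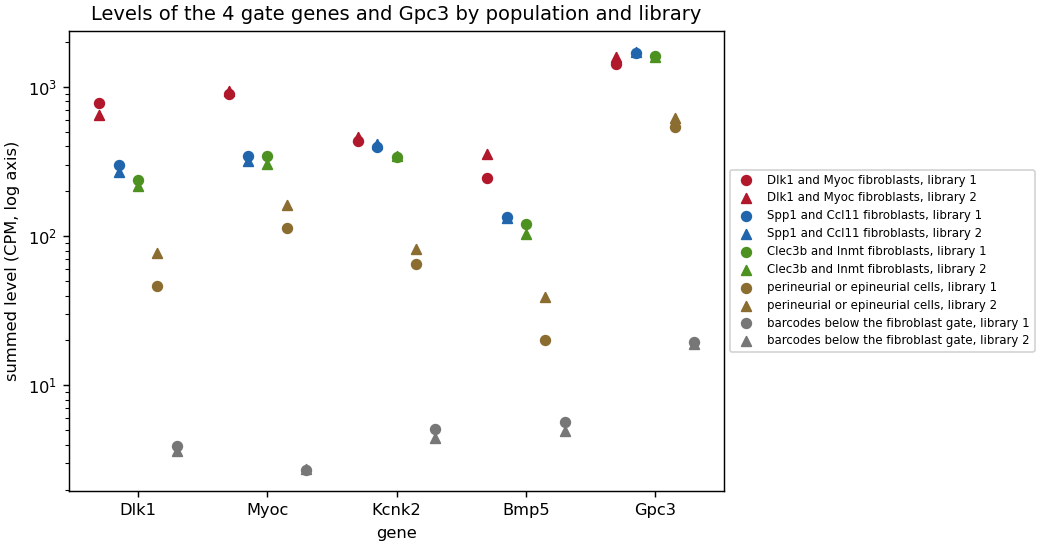
Points give the summed level in CPM on a log axis (y) of the 4 gate genes and of Gpc3 (x) in 5 populations, circles for library 1 and triangles for library 2. Dlk1 and Myoc are highest in members by the rule, Kcnk2 is nearly level with the Spp1 and Ccl11 fibroblasts, and Gpc3, which the rule did not use, is at 1422 and 1597 CPM in members, near or below its levels in the Spp1 and Ccl11 and the Clec3b and Inmt fibroblasts.

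General fibroblast genes were abundant in members but mostly below their level in Spp1 and Ccl11 fibroblasts. The 8 fibroblast markers summed to 43413 and 44544 CPM in members and to 53597 and 54224 in Spp1 and Ccl11 fibroblasts. Of the 4 that the rule did not use, Col1a2, Col3a1 and Serping1 were lower in members by edgeR's test and 1, Gsn, did not pass. Dcn, the small proteoglycan decorin, was at 24649 and 24298 CPM in members and at 29910 and 29624 in Spp1 and Ccl11 fibroblasts. Pdgfra, the receptor that marks many fibroblasts, was at 532 and 498 CPM in members and at 525 and 532 in Spp1 and Ccl11 fibroblasts, overlapping between the populations. Lum, the proteoglycan lumican, was at 2056 and 2075 CPM against 2898 and 2654, and Col1a1, the main fibrillar collagen, was at 1986 and 2010 against 2895 and 2772. All 5 adipocyte markers were at 0 in members (0 of 1777259 UMIs in both libraries together, which allows up to 1.69 CPM per gene), as were 5 of 6 mesothelial markers. Summed neuron markers (8 genes) were 3340 and 2368 CPM in members against 2004 and 1885 in Spp1 and Ccl11 fibroblasts, and satellite glia markers (6 genes) were 1042 and 774 against 654 and 569. Perineurial markers (9 genes, with Cldn1, Lypd2 and Slc6a13 of the rule among them) were at 230 and 154 CPM in members against 99.7 and 90.9. Macrophage markers (8 genes) were at 215 and 52.0 CPM in members against 97.4 and 102. Scrublet marked 12.8% and 10.7% of members as doublets against 7.83% and 10.1% of Spp1 and Ccl11 fibroblasts; members were kept in the tests and left out in an alternative. The part of RNA from these other cells in the results below was tested only through 2 alternatives. They leave out marked barcodes or barcodes with 20 p10k or more of neuron and glia genes. None of the alternatives left out further barcodes by perineurial genes.

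The closest population was compared first. The Spp1 and Ccl11 fibroblasts passed the same fibroblast, perineurial, Clec3b, interferon and C1q steps and differed from members only in which 4 genes prevailed. Of 15233 genes tested with edgeR's quasi-likelihood test on sums per library, with the library as a block, 363 (2.38%) passed a Benjamini-Hochberg adjusted p of 0.05: 139 (0.912%) were higher and 224 (1.47%) lower in members. The genes tested were not part of the rule, but a gene that varies between barcodes together with any of the 8 genes is selected along with it. Residual spread came from 3 degrees of freedom over 8 sums of 4 populations and was moderated across genes. A self-test on simulated counts of this comparison recovered 77% of genes changed by a log2 of 1 and 99% of those changed by 2. Genes with few counts were not among the changed ones, and all genes were given the same spread. These rates therefore do not cover genes at low levels.

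Immediate early and stress genes are switched on within minutes by growth factors, injury or the digestion of tissue, among them the AP-1 subunits Fos and Jun. Of 33 such genes tested, 21 were lower in members, 0 were higher and 12 did not pass. The median log2 difference of the list was -0.64, against -0.016 over all genes tested. The list had 0 genes higher in each of the 13 alternatives with a test, and the number lower ranged from 11 to 25. Depth differed between the populations, at medians of 6040 and 5871 UMIs in members against 8064 and 8770.5 in Spp1 and Ccl11 fibroblasts, and with all barcodes thinned to 3000 UMIs the same number, 21, was lower. The median share of mitochondrial UMIs was 3.43% and 2.84% in members against 3.04% and 2.89%. Under a stricter rule the 4 genes exceeded 2 times the opposing genes in members (47 and 43 members). The reverse held in the Spp1 and Ccl11 fibroblasts (743 and 696 barcodes). The list's median was then -1.42, against -0.10 over all genes. The stricter rule selects further on the same genes, with Cxcl1 among the opposing ones, and so on any gene that varies with them. All 13 alternatives kept the choice of members by the 4 genes over the opposing genes. The part of this choice in the lower levels of the list was not tested.

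Junb, an AP-1 subunit, was at 635 and 625 CPM in members and at 1341 and 1266 in Spp1 and Ccl11 fibroblasts. The groups did not overlap, and the log2 difference was -1.12 ± 0.064 (edgeR adjusted p = 1.47e-06). Jun was at 1080 and 1514 CPM against 2168 and 2329, a log2 difference of -0.87, and Fos was at 1026 and 1193 against 1714 and 1765, a difference of -0.72. Egr1, a zinc-finger transcription factor of the same early response, was at 928 and 1158 CPM against 1523 and 1805, a difference of -0.74. All 4 genes were lower in members of both libraries.

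Further members of the list included regulators other than AP-1. Klf2, a Krüppel-like factor, was at 134 and 118 CPM against 295 and 270, a log2 difference of -1.23. Klf4 was at 36.4 and 71.4 CPM against 107 and 141, a difference of -1.24. Dnajb1, a heat shock co-chaperone, was at 99.2 and 205 CPM against 409 and 356, a difference of -1.35. In Dnajb1 and Klf4 the members of library 1 were the lower of the pair, and in Klf2 the libraries lay close together.

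The promoters of Fos and Junb are shown because these AP-1 genes carried the lower levels in both libraries. They come from RefSeq on build GRCm38.p6 and run from 250 bases before to 50 after the gene start. Fos lies at chr12:85473640-85473939 (plus strand) and Junb at chr8:84978699-84978998 (minus strand), and both are printed 5′ to 3′ along the gene. Capitals mark TGACG on either strand, a part of the full cAMP response element TGACGTCA, which neither stretch holds.
Fos: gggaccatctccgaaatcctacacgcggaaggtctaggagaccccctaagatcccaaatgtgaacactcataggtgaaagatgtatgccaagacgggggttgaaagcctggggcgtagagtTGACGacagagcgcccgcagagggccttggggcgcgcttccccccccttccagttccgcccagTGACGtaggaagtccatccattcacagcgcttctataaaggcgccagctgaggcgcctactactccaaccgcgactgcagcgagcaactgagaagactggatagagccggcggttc
Junb: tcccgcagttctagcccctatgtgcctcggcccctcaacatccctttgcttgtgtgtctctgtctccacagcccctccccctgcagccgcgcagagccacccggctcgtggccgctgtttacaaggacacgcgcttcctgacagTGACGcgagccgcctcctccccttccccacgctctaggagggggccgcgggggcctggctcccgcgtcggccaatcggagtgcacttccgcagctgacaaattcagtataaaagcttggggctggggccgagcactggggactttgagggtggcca
Of the 21 genes of the list that were lower, 18 had a promoter in the table, and 11 of these (61.1%) held the motif. It was present in 50% of the 32 promoters matched to the whole list and in 29.2% of the 14732 matched to genes tested. The full element TGACGTCA was in 2 of the 18 (11.1%), in the same 2 of the 32 (6.25%) and in 2.84% of the 14732. A match describes these letters in this window and is not evidence of a bound factor.

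Of 24 chemokines, cytokines and their receptors tested, 3 were lower in members and 0 higher, and the list's median was -0.30. At 3000 UMIs per barcode the median was -0.018, against -0.032 over all genes, and among barcodes with little neuron and glia RNA it was -0.021, against -0.028. Without the filter on low counts 2 genes were higher. Ccl2, the monocyte chemoattractant, was at 17.6 and 9.18 CPM in members and at 188 and 93.3 in Spp1 and Ccl11 fibroblasts, a log2 difference of -3.46 ± 0.25 (edgeR adjusted p = 7.01e-06) that rested on 23 UMIs in members. Ccl7, its neighbour in the same chemokine cluster, was at 21.3 and 21.4 CPM against 106 and 74.4, a difference of -2.12. Il33, an alarmin, was at 159 and 190 CPM against 232 and 235, a difference of -0.48. Ccl11 and Cxcl1, further chemokines of the list, were in the rule on the opposing side and were not tested. Genes that vary with Ccl11 or Cxcl1 are selected along with them, so the list as a whole is not free of the way in which members were chosen.

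Of 31 fibrillar and network collagens, 11 were lower in members, 0 higher and 20 did not pass, with a median of -0.41. The number lower was 5 without the library block, 6 at a threshold of 10 p10k and 4 among barcodes with Xist and no Y-linked UMI. Col3a1, a fibrillar collagen, was at 2597 and 3027 CPM in members and at 3892 and 4174 in Spp1 and Ccl11 fibroblasts, a log2 difference of -0.59 ± 0.049 (edgeR adjusted p = 2.30e-05). Col4a1, a basement membrane collagen, was at 722 and 761 CPM against 948 and 1018, a difference of -0.47. Both collagens were separated between the populations in each library.

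Among 46 matrix glycoproteins 9 were lower and 2 higher, with a median of -0.12. Sparc, a collagen-binding protein, was at 4985 and 4815 CPM against 7722 and 8311, a log2 difference of -0.78, and Fn1, fibronectin, was at 136 and 170 CPM against 237 and 248, a difference of -0.72. Thbs1, thrombospondin 1, was at 123 and 153 CPM against 299 and 294, a difference of -1.16. The 2 genes higher in members were Fbln1 and Spon2. Of 29 matrix proteases and crosslinkers 5 were lower and 1 higher, and of 9 small leucine-rich proteoglycans 2 (Podn and Ogn) were lower.

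**Figure D3:**
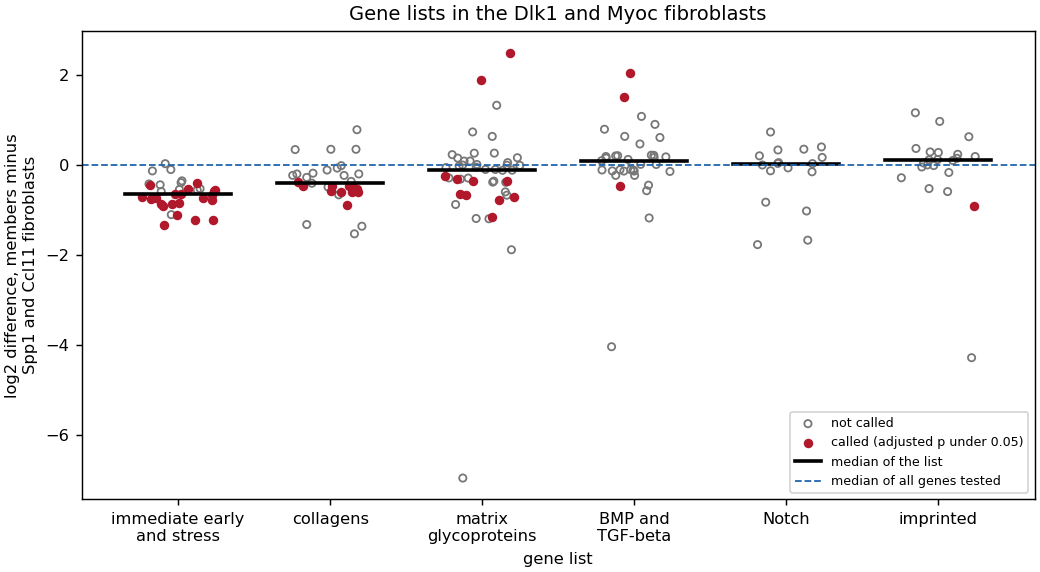
Each point is 1 tested gene, placed by its gene list (x) and its log2 difference between members and Spp1 and Ccl11 fibroblasts (y); filled points passed the adjusted p of 0.05, black lines are list medians and the dashed line is the median of all genes tested. All called immediate early and collagen genes lie below 0, no Notch gene was called, and the points below -4 are genes with 0 UMIs in members, whose fitted values are not sizes.

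In the pathways of the genes that name these cells, few genes were called. Of 17 Notch ligands, receptors and targets, 0 passed in either direction (median 0.025), although Dlk1 itself, a relative of the Notch ligands, was high by the rule. Of 22 imprinted genes only Plagl1 was called, lower in members. Meg3, the maternally expressed RNA of the imprinted cluster that holds Dlk1, was at 758 and 1087 CPM in members and at 863 and 891 in Spp1 and Ccl11 fibroblasts, overlapping between populations (log2 difference -0.005 ± 0.088). Of 33 potassium, calcium and mechanosensitive channels 0 passed, and of 14 adipogenesis genes Cebpb and Lpl were lower and 0 were higher.

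BMP and TGF-beta signalling showed 2 higher and 1 lower of 35 genes (median 0.090). Fst, the secreted activin and BMP antagonist follistatin, was at 46.5 and 43.9 CPM in members and at 16.6 and 13.9 in Spp1 and Ccl11 fibroblasts, a log2 difference of 1.50 ± 0.25 (edgeR adjusted p = 0.00614). Chrdl1, a BMP antagonist, was at 16.3 and 12.2 CPM against 4.35 and 2.27, a difference of 2.04 that rested on 25 UMIs in members. Id3, a target of BMP signalling, was lower at 293 and 279 CPM against 392 and 360, a difference of -0.46. Both antagonists were higher in members of each library, but Chrdl1 was at -0.16 when the threshold was raised to 10 p10k.

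Hedgehog signalling had 2 higher and 0 lower of 12 genes. Ptch1, the receptor and a target of the pathway, was at 284 and 244 CPM in members against 179 and 196, a log2 difference of 0.42, and Boc, a co-receptor, was at 38.9 and 37.7 CPM against 20.9 and 19.9, a difference of 0.84. Of 37 axon guidance genes 4 (Sema5a, Sema3c, Nrp2 and Sema3d) were higher and 0 lower. Wnt6 was the only one of 32 Wnt genes called, and it was higher. Ptn, the growth factor pleiotrophin, was at 170 and 148 CPM against 114 and 108, a difference of 0.44. Hand2, a transcription factor of sympathetic neurons and mesenchyme, was at 104 and 80.6 CPM against 52.1 and 58.7, a difference of 0.65, and was the only one of 44 mesenchymal and positional factors called.

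The endoneurial fibroblast list gave 0 calls of 7 tested genes, and Wif1, its remaining gene, was at 0 in members. Abca8a, a lipid transporter high in endoneurial fibroblasts, was at 1485 and 1736 CPM in members and at 1357 and 1458 in Spp1 and Ccl11 fibroblasts, a log2 difference of 0.12 ± 0.071 (edgeR adjusted p = 0.488). The epineurial or adventitial list gave 0 calls of 8. Neither list held a call that would set members apart from Spp1 and Ccl11 fibroblasts.

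Some of the genes most raised in members are known from other cells. By the rule for named genes (12 higher and 10 lower of largest difference at 50 CPM or more), the higher ones were Zbtb7c, Cntn5, Itga6, Tmeff2, Tsix, Sbspon, Cdh11, Epha5, Ntrk3, Ctnna3, Gm29683 and Bnc2. Itga6, an integrin subunit of perineurial cells, was at 74.1 and 41.8 CPM in members against 15.6 and 19.6, and its partner Itgb4 was at 43.9 and 33.7 against 18.1 and 15.4. Cntn5, a neuronal contactin, was at 41.4 CPM in library 1 and 318 in library 2 of members, so 1 library carried most of its difference of 2.31, which fell to -1.02 when the threshold was raised to 10 p10k. Itga6, Itgb4 and Epha5 also changed sign at that threshold, at -0.23, -0.081 and -0.41.

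Tmeff2, a transmembrane protein with follistatin-like domains, did not depend on a single library. It was at 172 and 183 CPM in members and at 62.5 and 62.6 in Spp1 and Ccl11 fibroblasts, a log2 difference of 1.44 ± 0.11. It stayed higher past the threshold in every one of the 13 alternatives with a test, with values from 0.96 to 2.34. Cdh11, a mesenchymal cadherin, was at 61.5 and 86.7 CPM against 35.6 and 32.0, a difference of 1.09. Bnc2, a zinc-finger factor of fibroblasts, was at 525 and 349 CPM against 221 and 205, a difference of 0.95.

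Neuron and glia genes were also higher. Npy, the peptide transmitter of sympathetic neurons, was at 1085 and 705 CPM in members against 576 and 516, a log2 difference of 0.63, and Fabp7, a satellite glia gene, was at 640 and 382 against 371 and 300, a difference of 0.52. With the Scrublet-marked barcodes left out, Fabp7 was at -0.029. The count of genes called fell from 363 to 150 (65 higher and 85 lower) among barcodes with under 20 p10k of neuron and glia genes, an alternative chosen after seeing the data. The immediate early list there had 17 genes lower and 0 higher.

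**Figure D4:**
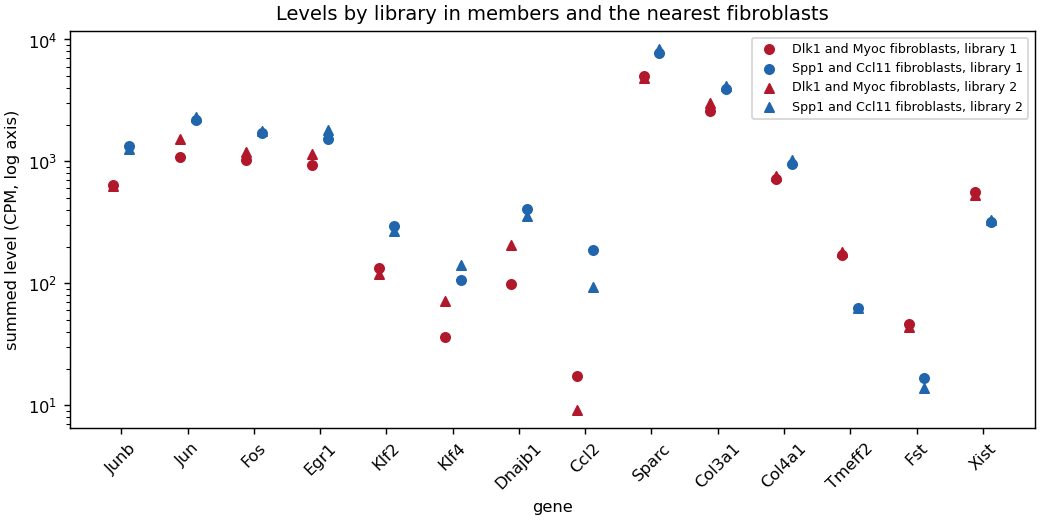
Points give the level in CPM on a log axis (y) of 14 genes (x) in members and in Spp1 and Ccl11 fibroblasts, circles for library 1 and triangles for library 2. Junb to Col4a1 lie lower in members of both libraries, and Tmeff2, Fst and Xist lie higher.

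Of 5 sex-linked genes, Xist was higher in members than in Spp1 and Ccl11 fibroblasts and the 4 Y-linked genes did not pass. Xist, the RNA that coats the inactive X chromosome of female cells, was at 557 and 533 CPM in members and at 322 and 333 in Spp1 and Ccl11 fibroblasts, a log2 difference of 0.67 ± 0.069 (edgeR adjusted p = 0.000143). Tsix, its antisense partner, was at 137 and 203 CPM against 65.8 and 68.9, but the sources used here do not state a strand setting for the counting, and without it the pair cannot be told apart. Barcodes were therefore sorted into those with Xist and no Y-linked UMI and those with Y-linked UMIs and no Xist. The former were 67 of 89 such members in library 1 (75.3%, exact 95% interval 65 to 83.8%) and 86 of 116 in library 2 (74.1%, 65.2 to 81.8%). In Spp1 and Ccl11 fibroblasts the share was 54.7% (51 to 58.3%) and 55.0% (51.4 to 58.6%). It was 62.5% and 57.8% in Clec3b and Inmt fibroblasts and 59.3% and 59.0% over all barcodes. At a fixed depth of 3000 UMIs, which left out 25 and 30 members, the share was 81.1% and 83.2% in members and 60.5% and 65.0% in Spp1 and Ccl11 fibroblasts.

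Of the 8 genes compared in the last step of the rule, Myoc differed most between these 2 classes. In all core fibroblasts Myoc was at 517 and 508 CPM in barcodes with Xist only and at 228 and 204 in barcodes with Y-linked RNA only, a ratio of 2.27 and 2.49. Dlk1 was at 364 and 349 CPM against 299 and 232, a ratio of 1.22 and 1.50. Kcnk2 ran the other way at 0.894 and 0.928, and so did Spp1 at 0.802 and 0.675. Crispld2, at 0.838 and 0.817, and Cxcl1, at 0.496 and 0.875, were also lower with Xist only. Bmp5 was at 1.065 and 1.237, and Ccl11 was at 1.022 and 0.922. Core fibroblasts here are wider than the members, and these values carry no test because the 2 classes come from the same 2 libraries and the animals are not known.

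Genes of the immediate early list also varied with the classes over core fibroblasts. Junb was at 956 and 998 CPM with Xist only against 1608 and 1481 with Y-linked RNA only, and Fos was at 1302 and 1446 against 2113 and 2049. The comparison of members with Spp1 and Ccl11 fibroblasts was therefore repeated within each class, as alternatives chosen after seeing the data. Among barcodes with Xist only, 56 genes were called (13 higher, 43 lower), and 11 of 33 immediate early genes were lower with a median of -0.51. Among barcodes with Y-linked RNA only, 135 were called (60 higher, 75 lower), and 14 of 33 were lower with a median of -0.60. Junb was lower by a log2 difference of -1.06 and -1.08 in the 2 classes, against -1.12 over all barcodes. The part of the Xist and Y-linked classes in the other calls was not tested.

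**Figure D5:**
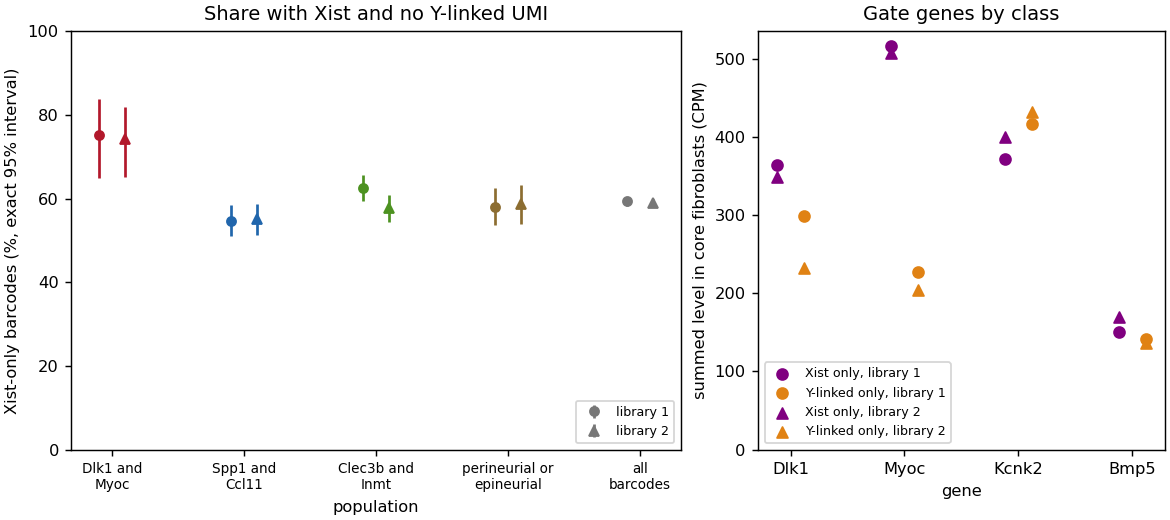
Left, the percent of barcodes with Xist and no Y-linked UMI among those with only 1 of the 2 kinds (y) in 5 populations (x), with exact 95% intervals that cover counting error only; right, the level in CPM (y) of the 4 gate genes (x) in core fibroblasts of the 2 classes. The 2 values of members, 75.3% and 74.1%, lie above all others, and Myoc is more than 2 times higher with Xist only in both libraries.

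Clec3b and Inmt fibroblasts were 2426 barcodes at 5 p10k or more of Clec3b, Inmt and Pcolce2, where members were below 5 p10k by the rule. Here 1522 of 15233 genes (9.99%) passed the test, 557 (3.66%) higher and 965 (6.33%) lower in members. The comparison uses the same sums of members as the one above. Genes that vary together with Clec3b, Inmt and Pcolce2 are selected along with them here.

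Of 12 complement components and regulators, 10 were lower in members and 0 higher (median -1.28, against -0.021 over all genes). C3, the central complement component, was at 36.4 and 36.7 CPM in members and at 555 and 592 in Clec3b and Inmt fibroblasts, a log2 difference of -4.12 ± 0.20 (edgeR adjusted p = 2.77e-08). C7, of the terminal pathway, was at 2.51 and 13.3 CPM against 244 and 323, a difference of -5.26 that rested on 15 UMIs in members. Serping1, the C1 inhibitor, remained abundant at 633 and 680 CPM against 1253 and 1279, a difference of -1.10. Each of these 3 was separated between the populations in both libraries. Against Spp1 and Ccl11 fibroblasts 1 of the 12, Serping1, was lower and 0 were higher, with a median of 0.016.

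The IGF system had 7 of 12 genes lower and 0 higher, against 1 lower (Igfbp7) and 1 higher (Igf1r) in the comparison with Spp1 and Ccl11 fibroblasts. Igfbp3, an IGF-binding protein, was at 3.77 and 14.3 CPM against 332 and 269, a log2 difference of -5.11, and Igfbp5 was at 31.4 and 22.4 against 162 and 177, a difference of -2.84. Of 46 matrix glycoproteins 19 were lower and 2 higher: Fbln1, fibulin 1, was at 13.8 and 14.3 CPM against 178 and 168, and Eln, elastin, was at 13.8 and 17.3 against 124 and 119. Of 29 matrix proteases 17 were lower and 2 higher. Dpt, dermatopontin, was at 18.8 and 25.5 CPM against 304 and 281, and Cxcl12, a chemokine that also acts on neurons, was at 138 and 137 against 491 and 473.

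Of 8 markers of epineurial or adventitial fibroblasts 5 passed, all lower in members. Summed, the list was at 508 and 603 CPM against 700 and 787. Its median per barcode was close, at 4.46 and 5.17 p10k in members against 4.60 and 4.78. Pi16, a marker of adventitial fibroblasts, was at 17.6 and 4.08 CPM against 90.2 and 113, a log2 difference of -3.48, and Sfrp4, a secreted Wnt inhibitor, was at 1.26 and 2.04 against 61.5 and 51.0, a difference of -5.18 that rested on 3 UMIs in members. Of the endoneurial list Plxdc1 and Abca8a were higher, 2 of 7, at 136 and 108 CPM against 72.8 and 81.2 and at 1485 and 1736 against 1152 and 1240. Channels had 9 of 33 higher and 0 lower, among them Piezo2, a mechanosensitive channel, at 133 and 162 CPM against 83.0 and 83.4. Neuron markers were also higher in this comparison, 7 of 8, as were 5 of 6 satellite glia and 5 of 8 Schwann cell markers.

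The immediate early list was lower in members here as well, with 22 of 33 genes lower and 0 higher and a median of -0.62. Both comparisons use the same members. Junb was at 635 and 625 CPM against 1109 and 1184. The largest rises were in Cntn5, Cntnap2, Zbtb7c, Itga6, Fgf14, Epha5, Sbspon, Tsix, Snhg11, Rgs5, Ctnna3 and Cttnbp2. Cntnap2, a neuronal adhesion protein, was at 38.9 CPM in library 1 and 312 in library 2 of members, against 17.8 and 24.1, and its difference of 2.93 became -0.32 among barcodes with little neuron and glia RNA. Slit2, an axon repellent, was at 2.51 and 5.10 CPM against 56.2 and 51.9, and Osr1, a transcription factor of connective tissue, was at 7.53 and 4.08 against 64.3 and 73.5.

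Perineurial or epineurial cells, 1272 barcodes that form the sheath of nerve and ganglion, gave the most calls of the 3 comparisons. Of 15233 genes 3005 (19.7%) passed, 1493 (9.8%) higher and 1512 (9.93%) lower in members, again with the same sums of members. Genes that vary together with Cldn1, Lypd2 and Slc6a13 are selected along with them here. Immediate early genes did not have the direction seen against the other fibroblasts: 12 of 33 were higher in members and 5 lower, with a median of 0.26. Under the stricter rule (the 4 genes over 2 times the opposing genes), 0 were higher and 5 lower, with a median of -0.39.

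Of 22 imprinted genes 11 were higher in members and 1 lower, with a median of 0.54 against -0.013 over all genes. At 3000 UMIs per barcode 5 of 20 tested were higher and 2 lower, with a median of 0.31, and with Y-linked RNA only 5 of 20 were higher and 1 lower. The median depth was 6040 and 5871 UMIs in members and 8792 and 8423.5 in perineurial or epineurial cells. Meg3, which lies beside Dlk1 on chromosome 12, was at 758 and 1087 CPM in members against 228 and 267, a log2 difference of 1.87 ± 0.093 (edgeR adjusted p = 4.53e-09). Rian, a long RNA of the same cluster that hosts small RNAs, was at 138 and 181 CPM against 35.5 and 39.4, a difference of 2.07. Another 3 genes of the cluster at low levels, Mirg, Dio3 and Rtl1, were higher as well, on 26, 16 and 8 UMIs in members, and Rtl1 overlaps an antisense RNA from which it cannot be told apart without strand. The 5 genes were thus higher in members together with Dlk1, whose own level was set by the rule, but against Spp1 and Ccl11 fibroblasts none of them passed the test.

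Imprinted genes elsewhere in the genome moved too. Grb10, an adaptor that restrains insulin signalling, was at 218 and 200 CPM against 84.6 and 83.8, and Mest was at 171 and 129 against 61.3 and 77.2. Cdkn1c, a cell cycle inhibitor, was the only imprinted gene lower in members, at 82.9 and 76.5 CPM against 210 and 211.

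Of 31 collagens 18 were higher and 3 lower in members (median 0.66). Col15a1, a collagen at basement membranes, was at 1397 and 1648 CPM against 203 and 330, a log2 difference of 2.50 ± 0.12. Col3a1 was at 2597 and 3027 CPM against 989 and 1125, a difference of 1.38. Of the endoneurial list 4 of 7 were higher and 1 lower: Abca8a was at 1485 and 1736 CPM against 402 and 539, and Osr2, a transcription factor, was at 77.8 and 64.2 against 13.6 and 14.2.

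Hedgehog signalling had 6 of 12 genes lower and 0 higher. Ptch1 was at 284 and 244 CPM in members against 1194 and 1130, a log2 difference of -2.18 ± 0.088 (edgeR adjusted p = 5.96e-10), and Gli1, a transcription factor and target of the pathway, was at 46.5 and 64.2 against 114 and 102. Krt19, a keratin of perineurial cells, was at 6.28 and 6.12 CPM against 217 and 177, and Itgb4 was at 43.9 and 33.7 against 574 and 564. Of the 5 perineurial markers tested 4 were lower and 0 higher. The genes of largest fall were Mpzl2, Stra6, Cldn22, Krt19, Kcnj13, Mybph, Efnb3, Ccdc3, Arl4d and Bmp3, and those of largest rise included Trpm6, Bmper, Grm8, Abca6, Fat3, Slc1a3, Inpp4b and Chrm3. Abca6, a lipid transporter related to Abca8a, was at 554 and 676 CPM against 69.1 and 119.

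Members with Dlk1 were compared with members with Myoc. The planned split at 2 UMIs left 12 barcodes in 1 group of library 2 and was not tested, so a split at 1 UMI was chosen after seeing the data. It set 21 and 22 members with Dlk1 and no Myoc against 29 and 33 with Myoc and no Dlk1. Of 2547 genes tested 6 passed (0.236%), 2 (0.0785%) higher and 4 (0.157%) lower with Dlk1. Fos was higher in the Dlk1 group, at 2117 and 1532 CPM against 566 and 335, and Gadd45g, a stress-induced gene, was higher at 117 and 178 against 23.3 and 5.97. Zbtb7c, Itga6, Klf5 and Slc12a2 were lower. Itga6 was at 23.4 and 33.9 CPM with Dlk1 and at 357 and 101 with Myoc, and Zbtb7c rested on 1 UMI in the Dlk1 group. With DESeq2 Fos alone passed, and with the other scaling or without the library block Zbtb7c alone did.

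Perineurial markers moved with this split. Summed over 9 genes they were at 132 and 152 CPM in members with Dlk1 and at 783 and 293 in members with Myoc, while the 8 fibroblast markers were at 45935 and 31515 against 23838 and 34900. Their part in the 6 calls was not tested. Nor was that of the Xist and Y-linked classes, with which both Myoc and Fos varied over core fibroblasts. Zbtb7c and Itga6 were also among the genes most raised in members against Spp1 and Ccl11 fibroblasts.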

How the data were processed

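The deposited values were raw UMI counts per gene and barcode (32183 genes), not normalized, made with Cell Ranger 6.1.2 on mm10 per the submitters' processing notes. The annotation release, the strand and intron settings and the authors' barcode filters are not named in the labels; the lowest barcode held 1501 UMIs. Libraries 1 and 2 held 94521010 and 95235439 UMIs. They share 64 barcode sequences, 0 of them with identical counts and 0 of them members in both.

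Counts were gated barcode by barcode, since cells are not replicates, and summed per library and population. These sums held 796625 and 980634 UMIs for members and 6351036 to 10456673 for the other 3 populations. All 8 sums entered 1 fit (edgeR 4.0.16 in R 4.3.3: filterByExpr, TMM, quasi-likelihood test, library as a block because the populations of a library come from 1 suspension), with Benjamini-Hochberg adjustment over 15233 genes; the 24 rule genes were not tested. The library block follows from the labels and not from the data. The simulated comparison that checked the script called 0.0472% of unchanged genes. A log2 difference is given with the standard error implied by its F statistic. Gene positions and promoters are on GRCm38, the assembly of mm10. Scrublet in scanpy 1.11.5 marked 564 and 624 barcodes.

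Genes were named as the 12 higher and 10 lower of largest difference among those called, alike in direction in both libraries and at 50 CPM or more in the higher population, as the 3 most abundant and up to 3 called genes of a list, and Gpc3; some further genes of the lists were picked after their values were seen. The members and lists were chosen with earlier results of these data known. The alternatives were DESeq2 1.42.0, another scaling, no filter, no block, doublet removal, thinning, other thresholds, 1 library at a time and those named as chosen after seeing the data.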

Additional observations from a re-analysis of the deposited data

How the results depend on the processing

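Counts of called genes moved with the processing in all 4 comparisons. The 363 calls against Spp1 and Ccl11 fibroblasts became 749 without the filter on low counts, 219 at 3000 UMIs per barcode, 125 at a threshold of 10 p10k, and 97 (43 higher, 54 lower) without the library block that pairs the sums of a library. In alternatives chosen after seeing the data they became 150 among barcodes with little neuron and glia RNA, 594 where a sum of 4 genes had to exceed 2 times the other, 56 with Xist only and 135 with Y-linked RNA only. The 1522 calls against Clec3b and Inmt fibroblasts became 960 at 3000 UMIs, 832 at 10 p10k, 999 with 2 populations in the fit, 714 with little neuron and glia RNA, 724 with Xist only and 306 with Y-linked RNA only. The 3005 against perineurial or epineurial cells became 1741 at 3000 UMIs, 1236 under the stricter ratio and 1007 with Y-linked RNA only. The 6 calls between members with Dlk1 and with Myoc became 1 with DESeq2, with the other scaling and without the block, and 13 without the filter. The share of members moved to 0.754% and 1.02% at 10 p10k and to 1.43% and 1.60% at 3000 UMIs. The cause was not tested in any of these, and the alternatives within a class hold fewer barcodes.

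Among named genes, those raised in members changed sign most often. Against Spp1 and Ccl11 fibroblasts at 10 p10k, Cntn5 was at -1.02, Itga6 at -0.23, Epha5 at -0.41, Chrdl1 at -0.16 and Itgb4 at -0.081. With marked doublets left out Ctnna3 was at -0.35 and Fabp7 at -0.029. Epha5 was at -0.45 with little neuron and glia RNA, Ctnna3 at -0.66 under the stricter ratio, and Cntn5, Epha5 and Ctnna3 at -1.38, -0.36 and -1.78 with Y-linked RNA only. Against Clec3b and Inmt fibroblasts at 10 p10k, Cntn5 was at -0.27, Cntnap2 at -0.19, Itga6 at -0.014, Epha5 at -0.18 and Snhg11 at -0.22. With little neuron and glia RNA Cntn5 was at -0.057, Cntnap2 at -0.32 and Snhg11 at -0.14. Ctnna3 was at -0.41 without marked doublets and at -0.20 under the stricter ratio, and Rgs5 at -2.08 with Xist only. With Y-linked RNA only Fgf14 was at -0.45, Rgs5 at -0.65, Ctnna3 at -1.90, Plxdc1 at -0.033 and Abca8a at -0.23. Gpc3 ran from -0.17 without library 2 to 0.011 without library 1. These values are log2 ratios of CPM without the scaling of the fit, so their signs cannot be compared with it. Against perineurial or epineurial cells Cntn5 was at -0.32 and Cntnap2 at -0.34 at 10 p10k, Cntnap2 was at -0.33 with little neuron and glia RNA, and Mirg was at -0.22 with Y-linked RNA only.

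With 1 library left out the values have no test, because 4 sums of 4 populations leave no residual degrees of freedom. Members hold 125 and 149 barcodes, which limits every gene at low levels. Leaving out genes with 0 UMIs in a population moved the printed medians of 8 lists by at most 0.0366.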
